A study of Mus musculus with 14 samples.

Results

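Collagen chain genes encode the polypeptides that wind together as triple helices and form the scaffold of extracellular matrix. Fibrillar collagens such as collagens I and III build the fibres of connective tissue, which in brain lies mainly in the meninges and around larger vessels. Basement membrane collagens, chiefly collagen IV, form the sheet on which endothelial cells and astrocyte endfeet sit, and the remaining classes decorate fibrils, anchor sheets or span cell membranes.

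The genes were chosen by name: every array probe whose RefSeq transcript belongs to a gene symbol of the form Col, a number, a and a number was taken. This gave 43 genes of the 20887 genes that the array's probes could be named for; of the 44 such genes in the reference annotation, Col12a1 had no probe that could be named. By class, 11 of the 43 were fibrillar, 8 were basement membrane collagens and 24 belonged to other classes. Each gene was read from its brightest probe.

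Expression was measured in punches of 1.5 mm from the medial prefrontal cortex of wild-type C57BL/6 mice on 1-colour Agilent arrays, with 35 ng of RNA from 1 mouse on each array. The 6 susceptible and 3 resilient mice had gone through repeated social defeat, in which a mouse meets an aggressor in session after session, and the labels sort them by behaviour. The 5 naive mice were moved between cages in its place. All 14 mice were taken 4 h after the last session and perfused with buffer under pentobarbital. The design names 2 experiments with separate mice, and the labels used here do not say which mouse belonged to which.

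All values below are log2 signals relative to the 75th percentile of the same array, so a value of 0 sits at that percentile. They are signals of single probes and do not rank genes by abundance. The 14 arrays were on 3 slides, of which slide 3 was scanned on a separate day. Slide 1 held naive 1, susceptible 1 and 2 and resilient 1 and 2. Slide 2 held naive 2 and 3, susceptible 3 and 4 and resilient 3. Slide 3 held naive 4 and 5, susceptible 5 and 6 and no resilient mouse. Each difference from naive mice within slide 1 therefore rests on naive 1 alone. The array's 75th percentile ranged between 7.69 and 9.24 log2 units in susceptible mice, between 7.96 and 8.17 in resilient mice and between 7.25 and 8.64 in naive mice. By the barcodes, naive mice took row 1 of each slide and defeated mice row 2, so the effect of the row cannot be told apart from that of defeat. All 6 markers of cortical excitatory neurons were well above background on all 14 arrays, with summed signals between 25.1 and 41.8 times the percentile in susceptible, between 29.4 and 35.5 in resilient and between 34.2 and 43.1 in naive mice.

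Of the 43 collagen chain genes, 18 were well above background on all 14 arrays, 14 on none and 11 on some, each read from its brightest probe. A dimmer probe was above background on 1 array for Col6a6, counted among the 14, and on 9 arrays for Col8a2. A gene was tested where its probe was well above background on every array of at least 1 group, which left 22 of the 43 genes among 14453 tested in all. A gene that passes only through the group where it is bright is favoured for a difference, so the 22 do not stand for all 43. Col3a1 and Col4a5 entered through the naive mice alone, where they were brightest, which favoured a difference below 0 in defeated mice.

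Of the 11 fibrillar genes, 4 were tested: Col1a1, Col1a2, Col3a1 and Col11a2. The other 7 included Col2a1 and Col11a1, chains of cartilage collagens, and Col5a2, Col5a3 and Col24a1, which were above background on no array. Col5a1, a chain that nucleates collagen I fibrils, was above background on 6 arrays, namely in 2 of 6 susceptible, 1 of 3 resilient and 3 of 5 naive mice. Of the basement membrane genes, 6 of 8 were tested. Col4a3 was above background on no array and Col15a1 on 2. Of the remaining classes, 12 of 24 were tested. Among the untested ones Col8a2, a network-forming chain, was above background on 7 arrays by its brightest probe and Col6a3, the third main chain of collagen VI, on 3.

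**Figure D1:**
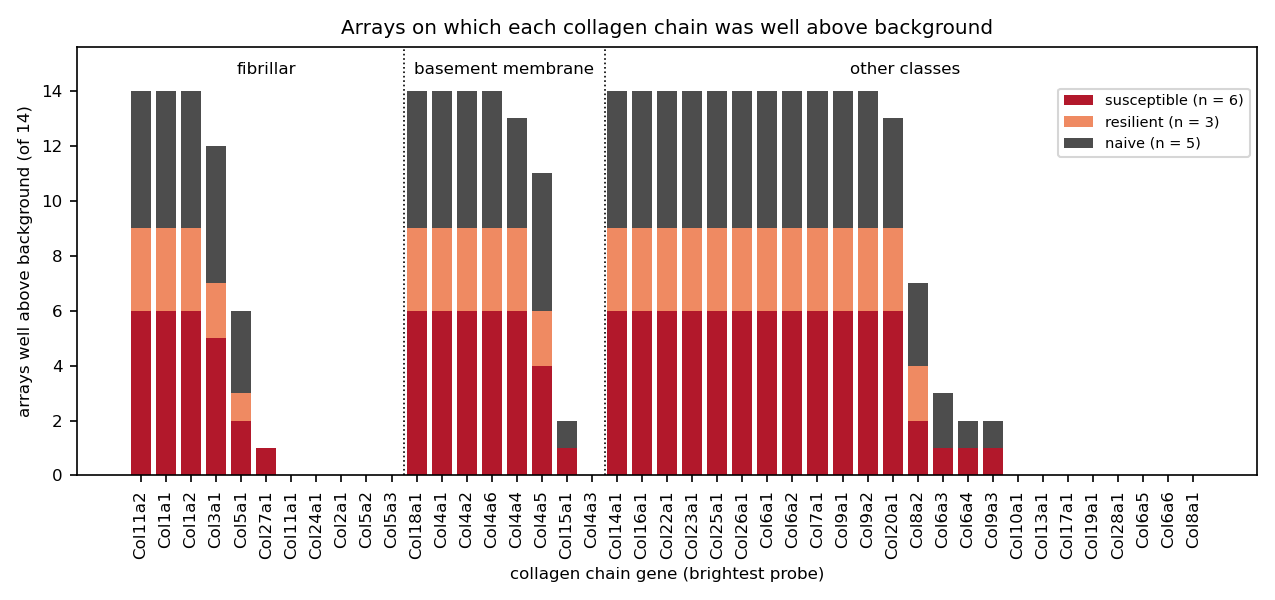
Number of arrays, of 14, on which the brightest probe of each collagen chain gene was well above background (vertical axis), stacked by group, with genes on the horizontal axis ordered by class. The bars reach 14 for 18 genes and 0 for 14 genes, and Col3a1 reaches 12 and Col4a5 11.

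The 4 promoter windows shown here belong to genes whose signals moved together across mice in the results below: Col4a1 with Col4a2, and Col1a2 and Col3a1 with Col1a1. Each runs 250 bases before to 50 bases after a start position of the gene and is taken from RefSeq, build GRCm38.p6, 5′ to 3′ on the gene's strand. For Col4a1 that position, 11312826, lies inside the annotated gene, which reaches 11312889. Capitals mark a GC box, spelled GGGCGG. They also mark a CCAAT box, spelled as its name, and a TATA box, spelled TATAAA. Each was searched on both strands, so the reverse complement of each motif is in capitals too; no marked motif overlaps another. The windows are Col4a1 at chr8:11312777-11313076 on the minus strand, Col4a2 at chr8:11312555-11312854 on the plus strand, Col1a2 at chr6:4505368-4505667 on the plus strand and Col3a1 at chr1:45311288-45311587 on the plus strand.
Col4a1: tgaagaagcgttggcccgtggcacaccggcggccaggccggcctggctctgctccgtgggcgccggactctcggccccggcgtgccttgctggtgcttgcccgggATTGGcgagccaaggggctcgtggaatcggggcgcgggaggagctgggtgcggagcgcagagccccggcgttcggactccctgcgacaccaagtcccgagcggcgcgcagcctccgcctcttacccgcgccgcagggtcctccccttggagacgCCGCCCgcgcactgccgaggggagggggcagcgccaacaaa
Col4a2: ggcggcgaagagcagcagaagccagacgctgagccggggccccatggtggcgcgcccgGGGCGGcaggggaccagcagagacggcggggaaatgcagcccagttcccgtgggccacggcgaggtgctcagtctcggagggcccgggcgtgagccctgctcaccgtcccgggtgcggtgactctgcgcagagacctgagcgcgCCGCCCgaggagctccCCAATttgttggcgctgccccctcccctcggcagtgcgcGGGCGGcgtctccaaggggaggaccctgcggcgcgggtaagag
Col1a2: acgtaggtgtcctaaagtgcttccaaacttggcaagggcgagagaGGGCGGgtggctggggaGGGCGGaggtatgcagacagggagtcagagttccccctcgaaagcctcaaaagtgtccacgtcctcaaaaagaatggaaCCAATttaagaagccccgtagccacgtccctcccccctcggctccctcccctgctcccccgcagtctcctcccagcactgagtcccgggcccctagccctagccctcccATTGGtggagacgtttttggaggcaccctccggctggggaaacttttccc
Col3a1: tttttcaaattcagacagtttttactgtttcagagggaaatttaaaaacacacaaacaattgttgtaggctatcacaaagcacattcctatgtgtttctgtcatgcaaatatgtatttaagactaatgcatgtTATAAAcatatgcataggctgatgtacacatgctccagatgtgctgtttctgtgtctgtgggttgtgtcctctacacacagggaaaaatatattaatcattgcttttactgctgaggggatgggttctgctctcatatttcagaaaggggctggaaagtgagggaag

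Col4a1 and Col4a2 are neighbours on opposite strands, and the start positions on which their windows are set differ by 21 bases. Their windows overlap by 78 bases, in which the CCGCCC of the Col4a1 window is the last GGGCGG of the Col4a2 window read from the other strand. GC content was 74.0% in the Col4a1 window, 73.7% in that of Col4a2, 61.0% in that of Col1a2 and 37.7% in that of Col3a1. A GC box was found in the windows of Col4a1, Col4a2 and Col1a2 and a TATA box in that of Col3a1. Windows were at hand for 35 of the 43 genes, 38 windows in all. A GC box lay in 60.5% of these windows and in 35.7% of all 32851 promoter windows of the table. A CCAAT box lay in 34.2% and 37.4%, and a TATA box in 13.2% and 13.6%, in the same order.

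No collagen chain gene passed the threshold in susceptible against naive mice. Under limma with Benjamini-Hochberg adjustment over all 14453 genes, 0 of 22 reached an adjusted p under 0.05, where 2.6% of all genes tested did. At an unadjusted p under 0.05, limma called 7 of 22, and 24% of all genes. Those 7 were Col25a1, Col26a1, Col9a2, Col18a1, Col3a1, Col11a2 and Col4a5, of which Col3a1 and Col4a5 had entered through the naive mice alone. In none of the 22 did all susceptible mice lie on 1 side of all naive mice, where 4.13% of all genes were so separated. The difference was below 0 for 18 of 22 genes, with a median of -0.24, while 46.8% of all genes tested were below 0 and their median was 0.02.

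Resilient against naive mice gave the same count: 0 of 22 reached an adjusted p under 0.05 in limma, where 0.152% of all genes did. At an unadjusted p under 0.05, limma called Col25a1, Col26a1 and Col3a1, 3 of 22, and 20.3% of all genes. Col3a1 had entered through the naive mice alone. Groups did not overlap for 2 of 22, Col25a1 and Col26a1, where 14.7% of all genes were so separated. The difference was below 0 for 15 of 22 genes, with a median of -0.14 against 0.02 over all genes. This comparison shares its naive mice with the one before, so the values are given side by side and are not independent.

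No collagen chain gene passed the threshold in susceptible against resilient mice. The adjusted p was 1 for all 22 in limma, 0 of 22 passed at an unadjusted p under 0.05, where 0.747% of all genes did, and 0% of all genes passed the adjusted threshold. The median difference of susceptible minus resilient was -0.02, against 0.01 over all genes. The 3 smallest p-values belonged to Col11a2, Col26a1 and Col9a1, with log2 differences of -0.39 ± 0.20, 0.37 ± 0.23 and -0.23 ± 0.15 (SE). The 95% intervals ran from -0.82 to 0.03 for Col11a2, from -0.12 to 0.85 for Col26a1 and from -0.54 to 0.08 for Col9a1. Col9a1, a chain of a fibril-surface collagen, had a lowest, median and highest value of -2.79, -2.46 and -2.30 in susceptible mice, against -2.44, -2.30 and -2.14 in resilient mice. It was at -2.75, -2.55, -2.52, -2.22 and -2.14 in naive mice, and the 3 groups overlapped.

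With slide added as a block, limma called 1 of 22 genes in susceptible against naive mice, Col25a1, against 15.3% of all genes. It called 0 of 22 in resilient against naive mice, 3.54% of all genes, and 0 of 22 in susceptible against resilient mice, 0% of all genes. At an unadjusted p under 0.05, the blocked fit had 10 of 22 in susceptible against naive mice, where 34.3% of all genes did. It had 2 of 22 in resilient against naive mice, where 26.7% of all genes did, and 0 of 22 in susceptible against resilient mice, where 1.93% did.

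**Figure D2:**
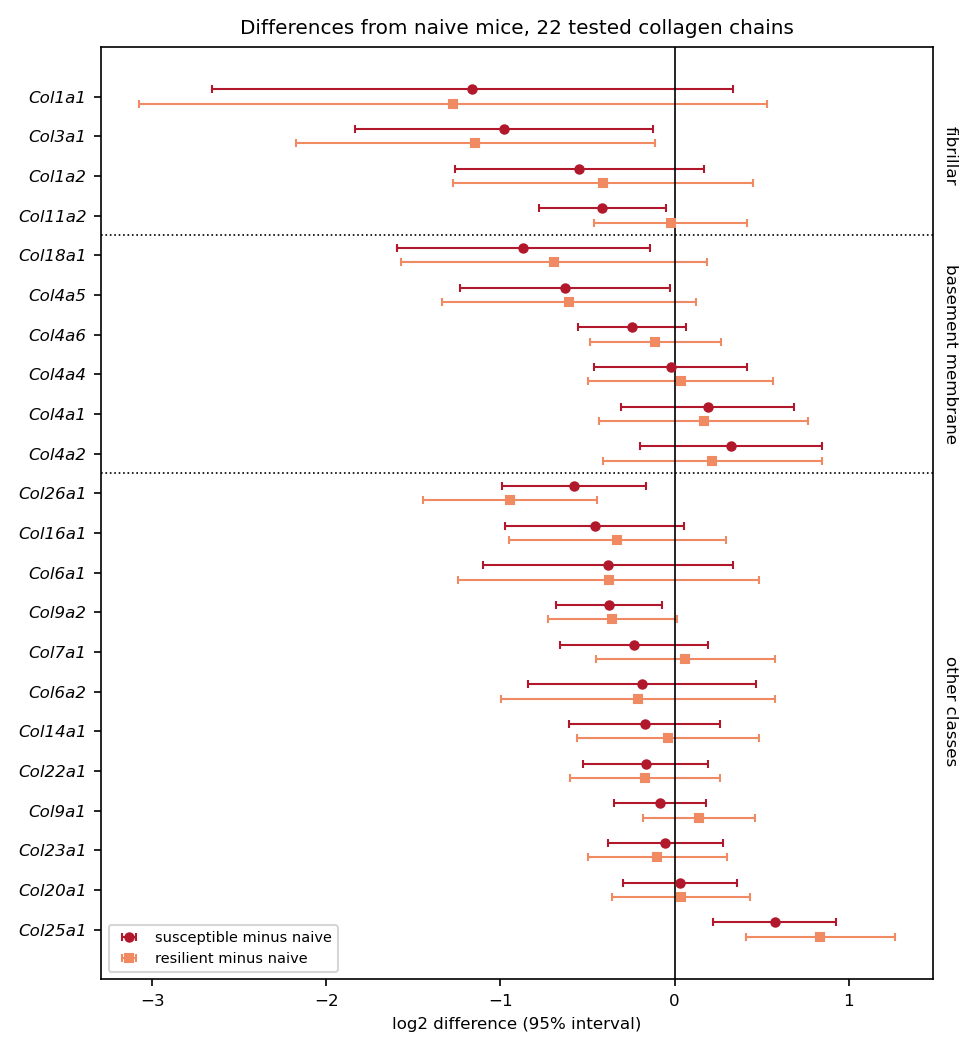
Log2 difference from naive mice (horizontal axis) with its 95% interval for the 22 tested collagen chain genes, in susceptible mice (circles) and resilient mice (squares), by class from top to bottom. The 4 fibrillar genes lie below 0 in both comparisons, Col4a1 and Col4a2 lie above 0 with intervals that include it, and Col25a1 lies farthest to the right.

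Over all mice, the fibrillar genes had the lowest class median in both comparisons with naive mice. Their median log2 difference was -0.76 in susceptible and -0.78 in resilient against naive mice, over 4 genes. In basement membrane genes it was -0.13 and -0.04 over 6 genes, and in the other classes -0.18 and -0.13 over 12. With slide as a block the fibrillar median was -0.70 and -0.51. Within slide 2, which held 1 resilient mouse, it was 0.24 in resilient against naive mice, above the 0.18 of basement membrane genes and the 0.12 of the others. These medians describe the genes that passed the filter, Col3a1 and Col4a5 through naive mice alone, and were not tested.

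Col1a1 encodes the major chain of collagen I. In susceptible mice its log2 signal ran between -2.68 and 1.16 with a median of -1.05, against -0.67, 0.00, 0.16, 0.73 and 1.35 in naive mice. The 3 resilient mice were at -2.65, -1.15 and 0.91. Susceptible 1 lay near the top of the naive range and susceptible 2 and resilient 2 lay lowest of all 14, so the groups overlapped. The log2 difference was -1.16 ± 0.70 in susceptible against naive mice (SE, adjusted p = 0.325 in limma) and -1.27 ± 0.84 in resilient against naive mice (adjusted p = 0.416). Its interval in susceptible mice ran from -2.66 to 0.33.

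Col1a2 encodes the partner chain of collagen I. Its signal averaged 2.59 ± 0.59 in susceptible mice (SD, n = 6), 2.72 ± 0.80 in resilient mice (n = 3) and 3.14 ± 0.55 in naive mice (n = 5). In susceptible mice the lowest, median and highest values were 1.79, 2.50 and 3.35, and in naive mice the values were 2.23, 3.12, 3.21, 3.51 and 3.62. Of the 6 susceptible mice, 4 lay below all naive mice but naive 2, and the groups overlapped. The difference was -0.55 ± 0.33 in susceptible and -0.41 ± 0.40 in resilient against naive mice (SE, adjusted p = 0.334 and 0.606 in limma).

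Col3a1 encodes the single chain of collagen III, which runs with collagen I in soft connective tissue. Its signal was -3.21, -2.98, -2.72, -2.65, -2.38 and -1.51 in the susceptible mice and -3.75, -2.87 and -1.60 in the resilient mice, against -2.34, -2.19, -1.67, -1.13 and -0.66 in naive mice. Of the 6 susceptible mice, 5 lay below every naive mouse, and susceptible 6 and resilient 3 lay among the naive mice. The probe was well above background in 5 of 6 susceptible, 2 of 3 resilient and 5 of 5 naive mice. The difference was -0.98 ± 0.40 in susceptible and -1.14 ± 0.48 in resilient against naive mice (SE, adjusted p = 0.157 and 0.204 in limma).

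Col11a2, a chain of collagen XI best known from cartilage, averaged -2.62 ± 0.20 in susceptible mice (SD, n = 6), -2.23 ± 0.12 in resilient mice (n = 3) and -2.21 ± 0.43 in naive mice (n = 5). Its lowest, median and highest values were -2.87, -2.64 and -2.32 in susceptible mice, and it was at -2.35, -2.21 and -2.12 in resilient mice, against -2.70, -2.66, -1.98, -1.87 and -1.83 in naive mice. Naive 4 and naive 5, on slide 3, lay within the susceptible range at -2.66 and -2.70, and the other 3 naive mice lay above it. The susceptible minus naive difference was -0.77 on slide 1, -0.69 on slide 2 and 0.05 on slide 3.

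Between slides, Col1a1 and Col1a2 kept their sign in susceptible against naive mice and changed it in resilient against naive mice, and Col3a1 kept its sign in both. Col1a1 differed by -0.92, -1.39 and -1.10 on slides 1, 2 and 3 in susceptible against naive mice. In resilient against naive mice it differed by -2.06 on slide 1, which held 1 naive mouse, and by 0.57 on slide 2, which held 1 resilient mouse. Col1a2 likewise differed by -0.84 on slide 1 and 0.74 on slide 2 in resilient against naive mice, and Col3a1 by -1.64 and -0.10. The size of the resilient differences depended on single mice. Without resilient 2 Col1a1 differed by -0.43, Col1a2 by -0.074 and Col3a1 by -0.64, and without resilient 3 Col1a1 differed by -2.21 and Col1a2 by -0.85.

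**Figure D3:**
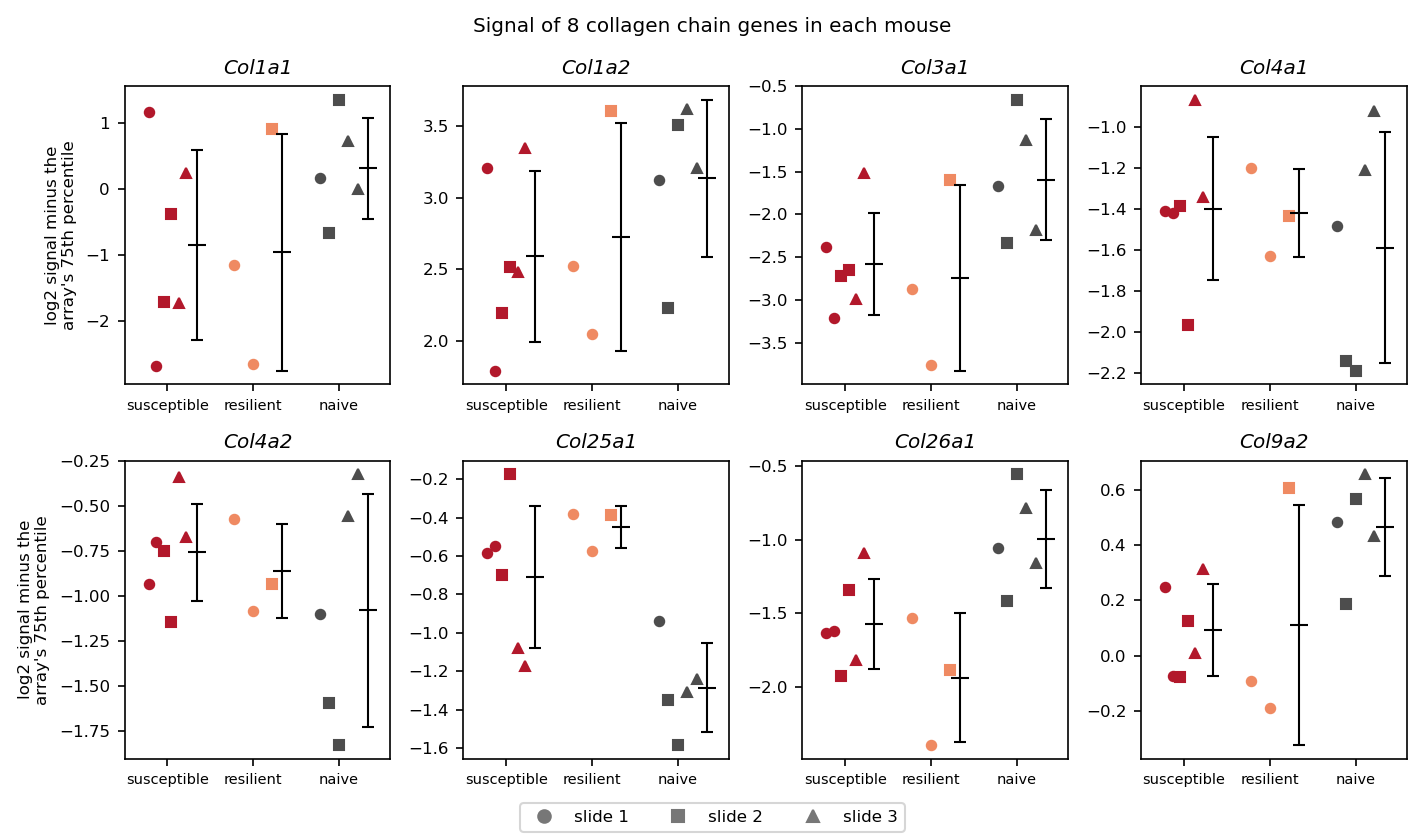
Log2 signal minus the array's 75th percentile (vertical axis) of 8 collagen chain genes in each mouse, with susceptible, resilient and naive mice from left to right, symbols for slides, and bars for the mean and SD. The groups overlap for Col1a1, Col1a2, Col4a1, Col4a2 and Col9a2, and all 3 resilient mice lie above the naive mice for Col25a1 and below them for Col26a1.

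The main chains of collagen IV, the network of the vascular basement membrane, lay above 0 in both comparisons with naive mice, and neither passed the threshold. Col4a1 averaged -1.40 ± 0.35 in susceptible mice (SD, n = 6), -1.42 ± 0.21 in resilient mice (n = 3) and -1.59 ± 0.56 in naive mice (n = 5). Col4a2 averaged -0.75 ± 0.27, -0.86 ± 0.26 and -1.08 ± 0.65 in the same groups. Col4a1 had a lowest, median and highest value of -1.96, -1.40 and -0.87 in susceptible mice and was at -1.63, -1.43 and -1.20 in resilient mice, against -2.19, -2.14, -1.49, -1.21 and -0.92 in naive mice. Col4a2 had -1.14, -0.72 and -0.34 in susceptible mice and was at -1.08, -0.93 and -0.57 in resilient mice, against -1.83, -1.59, -1.10, -0.55 and -0.32 in naive mice. Naive mice were the most spread, with naive 2 and naive 3 lowest of the 14 for both genes and naive 5 among the 2 highest. The differences in susceptible against naive mice were 0.19 ± 0.23 and 0.32 ± 0.24 (SE, adjusted p = 0.649 and 0.441 in limma). Their intervals were -0.31 to 0.69 for Col4a1 and -0.20 to 0.85 for Col4a2. In resilient against naive mice the differences were 0.17 ± 0.28 and 0.22 ± 0.29. Without naive 3 the susceptible differences were 0.041 and 0.14, and without naive 5 they were 0.36 and 0.51.

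Col18a1 encodes collagen XVIII, whose end fragment is endostatin. It was at -2.28, -2.25, -1.34, -1.32, -1.27 and -0.78 in susceptible mice and at -2.47, -1.12 and -0.50 in resilient mice, against -1.28, -0.74, -0.56, -0.44 and -0.33 in naive mice. Naive 2 was the lowest naive mouse, and susceptible 1, susceptible 6, resilient 1 and resilient 3 lay above it. The difference was -0.87 ± 0.34 in susceptible and -0.69 ± 0.41 in resilient against naive mice (SE, adjusted p = 0.142 and 0.357 in limma). Without resilient 2 the resilient difference was -0.14, and without resilient 3 it was -1.12. A dimmer probe of the same gene gave -1.05 and -1.01.

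Col4a5, a collagen IV chain encoded on the X chromosome beside Col4a6, differed by -0.63 ± 0.28 in susceptible and -0.61 ± 0.34 in resilient against naive mice (SE, adjusted p = 0.192 and 0.332 in limma). Its probe was well above background in 4 of 6 susceptible, 2 of 3 resilient and 5 of 5 naive mice. Without resilient 2 the resilient difference was -0.35. Col4a4 and Col4a6 differed by -0.02 and -0.24 in susceptible and by 0.03 and -0.11 in resilient against naive mice. A dimmer probe of Col4a6, above background on 10 arrays, gave -0.9998 in susceptible and -0.85 in resilient against naive mice.

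Among the remaining classes, Col25a1 and Col26a1 had the smallest p-values of all 22 genes, in opposite directions. Col25a1 encodes a transmembrane collagen of neurons whose shed part binds amyloid. Its signal was -1.17, -1.08, -0.70, -0.59, -0.55 and -0.17 in susceptible mice and -0.57, -0.39 and -0.38 in resilient mice, against -1.59, -1.35, -1.31, -1.24 and -0.94 in naive mice. Both low susceptible mice, 5 and 6, were on slide 3, and they alone overlapped the naive mice.

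The Col25a1 difference was 0.58 ± 0.17 in susceptible against naive mice, or 1.49-fold (95% interval 1.17 to 1.91, adjusted p = 0.0683 in limma). In resilient against naive mice it was 0.84 ± 0.20, or 1.79-fold (1.33 to 2.40, adjusted p = 0.0837). With slide as a block the adjusted p was 0.0314 in susceptible and 0.0610 in resilient against naive mice. The blocked call in susceptible mice was lost without any 1 of naive 1, naive 2, naive 3, susceptible 2, susceptible 4 and susceptible 5. Without susceptible 6 the gene passed in the fit without slide (0.67, adjusted p = 0.0305 in limma). Within slides, susceptible exceeded naive mice by 0.37, 1.03 and 0.15 on slides 1, 2 and 3. The array carried 4 probes for the gene, and the others gave 0.19, 0.01 and 0.65 in susceptible and 0.39, 0.34 and 0.66 in resilient against naive mice.

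Col26a1 encodes a secreted collagen with an EMI domain. Its signal was -1.93, -1.82, -1.63, -1.62, -1.34 and -1.09 in susceptible mice and -2.40, -1.89 and -1.53 in resilient mice, against -1.42, -1.16, -1.06, -0.78 and -0.55 in naive mice. All 3 resilient mice lay below every naive mouse, and susceptible 4 and susceptible 6 lay within the naive range. The difference was -0.58 ± 0.19 in susceptible and -0.94 ± 0.23 in resilient against naive mice (SE, adjusted p = 0.0988 and 0.0865 in limma). It was below 0 on every slide that held both groups, between -0.65 and -0.49 in susceptible and at -0.91 and -0.90 in resilient against naive mice.

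Col9a2 and Col16a1 encode chains that sit on the surface of fibrils. Col9a2 was between -0.08 and 0.31 in susceptible mice with a median of 0.07, and at -0.19, -0.09 and 0.61 in resilient mice, against 0.19, 0.43, 0.48, 0.57 and 0.66 in naive mice. The difference was -0.37 ± 0.14 in susceptible and -0.36 ± 0.17 in resilient against naive mice (SE, adjusted p = 0.134 and 0.262 in limma). The resilient value was -0.21 without resilient 2 and -0.61 without resilient 3. Col16a1 averaged -0.12 ± 0.46 in susceptible mice (SD, n = 6), 0.01 ± 0.53 in resilient mice (n = 3) and 0.34 ± 0.35 in naive mice (n = 5). Its lowest, median and highest values were -0.64, -0.079 and 0.62 in susceptible mice, and it was at -0.50, -0.038 and 0.56 in resilient mice, against -0.22, 0.20, 0.51, 0.54 and 0.66 in naive mice, so the groups overlapped. Col1a2, Col9a2 and Col16a1 had the 3 highest probe signals of the collagen chain genes in naive mice.

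Collagen VI, a beaded filament around cells, was read through Col6a1 and Col6a2. Col6a1 differed by -0.38 ± 0.34 in susceptible and -0.38 ± 0.40 in resilient against naive mice, and Col6a2 by -0.19 ± 0.31 and -0.21 ± 0.37 (SE). In Col6a2, susceptible 6 was at -0.56, and the other 5 susceptible mice lay between -2.23 and -2.03. The 6 remaining genes were Col7a1, Col9a1, Col14a1, Col20a1, Col22a1 and Col23a1. Their brightest probes differed by between -0.24 and 0.03 in susceptible and between -0.17 and 0.14 in resilient against naive mice. Some dimmer probes lay outside these ranges. Among them were a Col20a1 probe (-0.58 in susceptible), a Col9a1 probe (-0.62 in resilient) and Col23a1 probes (-0.46 and 0.25 in resilient against naive mice).

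The spread between mice of 1 group was wider for collagen chain genes than for the typical gene. The within-group SD had a median of 0.37 over the 22 genes and of 0.23 over all 14453 genes. For Col1a1 it was 1.32, above that of 99.9% of all genes tested, for Col3a1 0.75 and for Col18a1 0.63. At the other end, Col9a1 had 0.20, below the median gene. Naive 3 was the highest of the 14 mice for 7 of 22 genes and naive 4 for 4, while susceptible 2, susceptible 5 and resilient 2 were each the lowest for 4.

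In each of the 4 pairs of chains computed, the signals moved together across the 14 mice. Col4a1 and Col4a2 had r = 0.96 and rho = 0.97, Col1a1 and Col1a2 r = 0.92 and rho = 0.89, and Col6a1 and Col6a2 r = 0.89 and rho = 0.88. Col1a1 and Col3a1, which share fibrils, had r = 0.87 and rho = 0.88. These were the 4 pairs computed, and adjusted over them the permutation p was between 2e-05 and 6e-05 for r and between 4e-05 and 1.1e-04 for rho (two-sided, 100000 resamples, smallest possible unadjusted p 1e-05). Without the 2 mice farthest from the median of the first gene, r was 0.92, 0.88, 0.82 and 0.80 in the order of naming. As deviations from slide means it was 0.91, 0.95, 0.87 and 0.86, and slides held too few mice for a value within each. All values of a mouse come from 1 array, which the chains share. Pairs of chains that do not assemble and pairs of other genes were not computed. The correlations therefore cannot be called particular to chains that assemble.

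**Figure D4:**
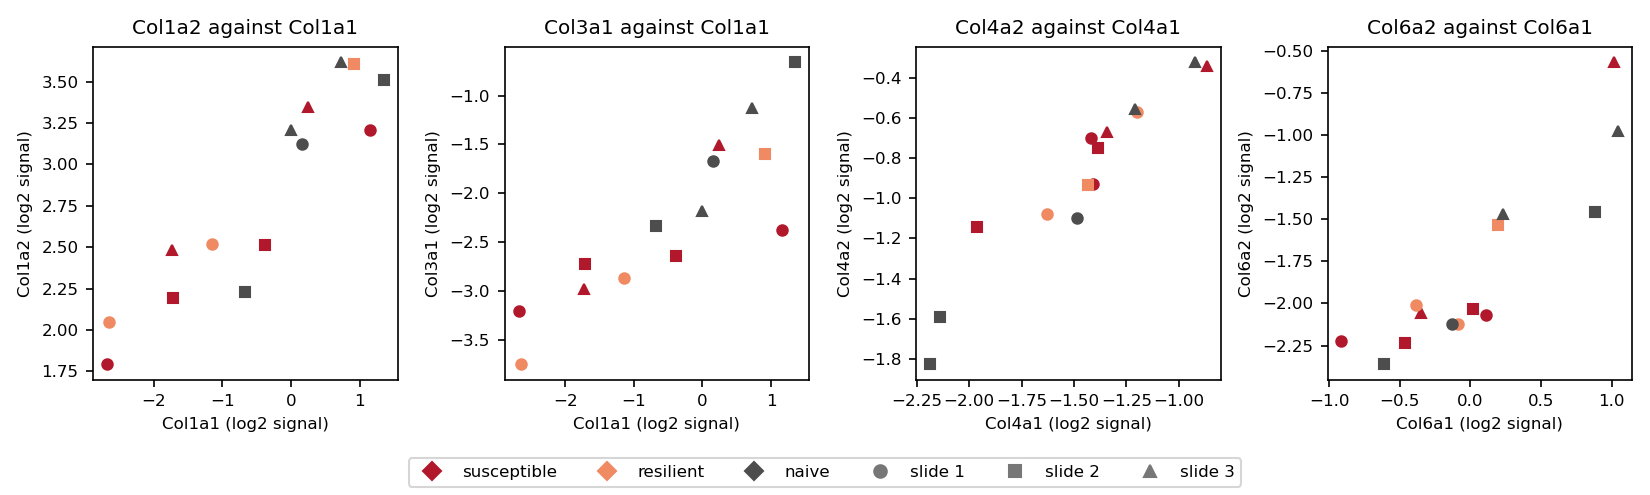
Log2 signal of one chain (vertical axis) against another (horizontal axis) in each of 14 mice for 4 pairs, coloured by group and with symbols for slides. Points of all 3 groups run along 1 line in each panel, and susceptible 2 and resilient 2 lie at the low end for Col1a1, naive 2 and naive 3 for Col4a1.

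Markers of meningeal fibroblasts, the cells that make most fibrillar collagen of the brain's coverings, lay below the naive level on average in defeated mice, with overlap between groups. All 9 markers listed (Dcn, Lum, Ogn, Igf2, Slc6a13, Slc22a6, Fmod, Mgp and Aldh1a2) were tested and had differences below 0 in both comparisons, with medians of -1.07 in susceptible and -0.94 in resilient against naive mice, and 0 of 9 passed in limma (3 and 2 of 9 at an unadjusted p under 0.05). The unadjusted shares of all genes were 24% and 20.3%. With slide as a block 1 of 9 passed in both, the transporter gene Slc22a6 (-0.90 in susceptible and -0.9997 in resilient against naive mice, adjusted p = 0.00773 and 0.0293 in limma). The blocked fit called 15.3% and 3.54% of all genes. None of the 9 was below background on every array, and 6 were above it on all 14. Their summed signal, relative to the 75th percentile, ran between 13.4 and 53.7 in susceptible mice, between 11.4 and 50.4 in resilient mice and between 29.0 and 82.9 in naive mice. Resilient 2 and susceptible 2 had the smallest sums, 11.4 and 13.4, and naive 3 the largest. Linear signals were added, so bright markers weigh most. Mgp was the brightest of the 9 in naive 3, at a log2 signal of 5.51. It differed by -0.54 in susceptible and -0.47 in resilient against naive mice. In a punch of bulk tissue, fewer cells of a type and less RNA per cell cannot be told apart.

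Of the 22 collagen chain genes, 10 were positively correlated with that sum across mice (adjusted permutation p under 0.05 for r and rho). After their values had been seen, each gene's log2 signal was set against the log2 sum of the meningeal and of the endothelial markers, 44 correlations in all. Neither sum was set against the other genes of the 14453 tested. No share of all genes can therefore be given, and the counts are not a trait of collagen chain genes. The resamples moved mice freely between groups and slides. Both sums weigh bright markers most, and the markers were not correlated singly. For the meningeal sum, r was 0.95 for Col3a1 (rho = 0.96), 0.91 for Col1a1 (rho = 0.92), 0.90 for Col1a2 (rho = 0.92), 0.90 for Col16a1 (rho = 0.88), 0.89 for Col18a1 (rho = 0.89) and 0.88 for Col9a2 (rho = 0.88). The permutation p adjusted over the 44 was between 2.2e-04 and 5.13e-04 for these r and between 4.4e-04 and 8.8e-04 for rho (two-sided, 100000 resamples). Without naive 3 and resilient 2, the mice farthest from the median sum, r lay between 0.85 and 0.92 for the 6 genes. As deviations from slide means r lay between 0.85 and 0.94. The other 4 of the 10 were Col26a1, Col4a5, Col6a1 and Col6a2, with r between 0.66 and 0.77.

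For the collagen IV pair, r with the meningeal sum was -0.17 for Col4a1 (rho = -0.08, adjusted permutation p = 0.684 and 0.853) and -0.28 for Col4a2 (rho = -0.11, adjusted permutation p = 0.453 and 0.826). For Col25a1 it was -0.52 (rho = -0.51, adjusted permutation p = 0.128 and 0.132). With the endothelial sum, 1 of 22 genes passed in both r and rho, Col1a2 with r = 0.67 (rho = 0.72, adjusted permutation p = 0.0388 and 0.0250). Without the 2 mice farthest from the median endothelial sum its r was 0.54. Col4a1 had r = 0.54 and Col4a2 r = 0.48 with the endothelial sum (adjusted permutation p = 0.121 and 0.177). The part of meningeal tissue in the collagen differences was not tested.

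**Figure D5:**
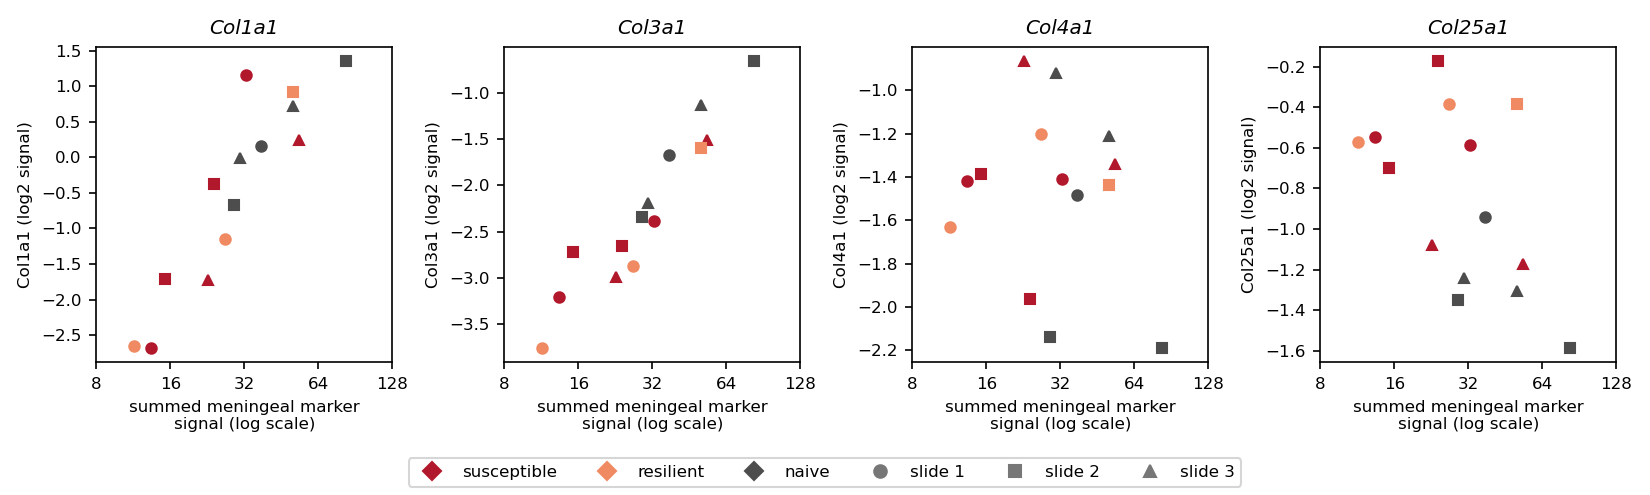
Log2 signal of Col1a1, Col3a1, Col4a1 and Col25a1 (vertical axes) in each mouse against the summed signal of 9 meningeal fibroblast markers relative to the array's 75th percentile (horizontal axis, log scale). Col1a1 and Col3a1 run along the sum with r of 0.91 and 0.95, and Col4a1 does not, with r of -0.17. Sums of pericyte or smooth muscle and of perivascular macrophage markers were not set against these genes.

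Other cell types were read the same way. Of 9 tested pericyte or smooth muscle markers 8 were below 0 in susceptible against naive mice, with a median of -0.59. In limma 0 of 9 passed the adjusted threshold and 5 an unadjusted p under 0.05, where 2.6% and 24% of all genes did. Their summed signal had a median of 17.0 in susceptible, 19.4 in resilient and 26.9 in naive mice, with highest values of 26.2, 26.2 and 37.9. Of 9 tested endothelial markers 7 were below 0 with a median of -0.45, and 1, the transporter gene Slco1a4, fell (-0.73 ± 0.16, SE, adjusted p = 0.0391 in limma, past the threshold in 27 of 43 alternatives and lost without any 1 of naive 1 to 4, susceptible 1 to 5 or resilient 1). With slide as a block, limma called 3 of 9 endothelial genes, Slco1a4, Flt1 and Abcb1a, and 2 of 9 pericyte or smooth muscle genes, Notch3 and Higd1b, all below 0, in susceptible against naive mice. That fit called 15.3% of all genes. The summed endothelial signal overlapped, between 43.6 and 61.5 in susceptible, between 35.4 and 65.6 in resilient and between 41.8 and 61.8 in naive mice. Its medians were 50.3, 57.4 and 46.8 in the same order. Linear signals were added, so the sum weighs bright markers such as Ly6c1 and Slc2a1 most. Those 2 were the only tested endothelial markers above 0 in susceptible against naive mice (0.27 and 0.47). Perivascular macrophage markers had sums between 0.42 and 1.97 in susceptible, between 0.39 and 2.19 in resilient and between 0.74 and 2.53 in naive mice, with Cd163 above background on no array. The pericyte or smooth muscle sum was largest in naive 3 (37.9) and smallest in susceptible 2 and resilient 2 (9.0 and 9.8). The macrophage sum was likewise 2.53 in naive 3 and 0.42 and 0.39 in those mice, the same mice as for the meningeal sum. Collagen signals were not set against these sums, so the correlations above cannot be called particular to meningeal fibroblasts. The part of these cells in the collagen differences was not tested.

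Genes that build, cut and bind collagen were listed beside the chains. Of 16 tested genes of collagen folding and hydroxylation, 6 had an unadjusted p under 0.05 in limma in susceptible against naive mice. The share of all genes was 24%. Past the adjusted threshold 1 of the 16 rose and 0 fell, where 2.6% of all genes passed. It was P4ha2, a subunit of the enzyme that hydroxylates prolines of collagen, at 0.74 to 0.92 in susceptible mice and 0.46, 0.83 and 0.99 in resilient mice, against -0.00, 0.26, 0.28, 0.35 and 0.70 in naive mice. Its difference was 0.53 ± 0.12 in susceptible against naive mice (SE, adjusted p = 0.0404). It stayed past the threshold in 29 of 43 alternatives, and was lost with no filter on dim probes (adjusted p = 0.0873 in limma) and without any 1 of naive 1 to 3, susceptible 1 to 5 or resilient 1. P3h4, a partner of lysyl hydroxylation, differed by -0.43 ± 0.12 (adjusted p = 0.0637). Under the slide block P4ha2, P3h4 and Colgalt1, a collagen galactosyltransferase gene, passed (0.52, -0.41 and 0.35, adjusted p = 0.0141, 0.0315 and 0.0360 in limma), where 15.3% of all genes did.

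Of 10 tested genes of procollagen processing and cross-linking, 0 passed in susceptible against naive mice, where 2.6% of all genes did. At an unadjusted p under 0.05, limma called 3 of 10, and 24% of all genes. In resilient against naive mice 3 of 10 had an unadjusted p under 0.05 in limma, where 20.3% of all genes did. Past the adjusted threshold there was 1 of 10, where 0.152% of all genes passed. It was Adamts3, a protease that trims procollagen, whose probe was above background in 3 of 3 resilient, 2 of 6 susceptible and 0 of 5 naive mice. It entered the test through the resilient mice alone, where it was high, which favoured a call. It averaged -3.02 in resilient and -4.55 in naive mice, at least 1.52-fold higher in resilient mice (adjusted p = 0.0370 in limma). The bound sets the resilient mean against the lowest signal that counted as above background on each naive array. The adjusted p was 0.0927 with no filter on dim probes and 0.0531 with a filter on 3 arrays. The call held in 19 of 41 alternatives and was lost without any 1 of the 3 resilient mice, of naive 2 to 4 or of susceptible 1, 2, 3 and 5. Blocking by slide, limma called Adamts14, a related protease gene, in susceptible against naive mice (-0.34, adjusted p = 0.0492), and Adamts3 in resilient against naive mice (1.39, adjusted p = 0.0293). That fit called 15.3% and 3.54% of all genes in these comparisons.

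None of the genes of the other 3 pathway lists passed in limma without slide in any comparison. In susceptible against naive mice, collagen receptors had 0 of 7 past and 3 at an unadjusted p under 0.05, with Lair1 at -0.29 ± 0.10 and the collagen-binding kinase gene Ddr1 at -0.40 ± 0.15 nearest (SE, adjusted p = 0.0975 and 0.120). Collagen degradation had 0 of 6 past and 2 unadjusted, with the protease gene Ctsk at -1.19 ± 0.39 and Timp2, an inhibitor of matrix proteases, at 0.35 ± 0.14 (SE, adjusted p = 0.0978 and 0.138). The other basement membrane components, laminins, nidogens and their partners, had 0 of 18 past and 5 unadjusted, with the laminin chain gene Lama5 at -0.50 ± 0.14 and Pxdn, which cross-links collagen IV, at 0.30 ± 0.11 (SE, adjusted p = 0.0616 and 0.123). With slide as a block, limma called 2 of 7 receptor genes, 1 of 6 degradation genes and 1 of 18 basement membrane genes in susceptible against naive mice, all below 0. They were Lair1 (-0.30, adjusted p = 0.0386), Itga1, an integrin chain (-0.52, adjusted p = 0.0386), Ctsk (-1.07, adjusted p = 0.0386) and Lama5 (-0.48, adjusted p = 0.0321). Itga1 passed also in resilient against naive mice (-0.79, adjusted p = 0.0490). The blocked fit called 15.3% and 3.54% of all genes in these comparisons. Without slide, 24% of all genes had an unadjusted p under 0.05 in limma in susceptible against naive mice.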

How the data were processed

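Fluorescence intensity was read on 14 Agilent 1-colour arrays, 1 mouse each. Per the file headers, the authors' deposited scanner files hold background-subtracted intensity per spot from Agilent Feature Extraction 11.0.1.1, with mm9 as the build named. The authors' deposited value table holds log2 intensity minus 1 constant per array (r = 1 with the scanner values), so its scale is log2 and its choice of constant is not given in the sources used here. No filter or test of the authors is recorded there.

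Spots of a probe were averaged, outlier spots and control spots left out, and log2 intensity was centred on each array's 75th percentile. Probes were named through RefSeq transcripts (27509 of 55681 probes, 20887 genes). Genes well above background on every array of a group were tested with limma 3.58.1 in R 4.3.3, 3 groups in 1 fit without covariates, with Benjamini-Hochberg adjustment over 14453 genes. The number of arrays limits the precision. In simulated data made for susceptible against naive mice over 14453 genes, 34.0%, 79.7% and 99.1% of log2 changes of 0.5, 1 and 2 were recovered, and 0.05% of unchanged genes were called. The changes were put into random genes with independent noise, so these rates do not hold for the collagen chain genes. Their median within-group SD was 0.37 against 0.23 over all genes, and that of Col1a1 was 1.32. The labels call the mice separate animals of a group. The alternatives were other normalisations and background correction, filters, probe rules, the authors' value table, slide, scan day and replicate number as blocks, single slides and leaving out each mouse.

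Values in every mouse are given for Col1a1, Col1a2, Col3a1, Col4a1, Col4a2, for the 3 collagen chain genes with the smallest p-values in each comparison, since none passed the threshold, and for the 3 with the highest naive signals. For groups of 6 this can be the lowest, median and highest value. Genes of the lists past the threshold are named, and pathway genes are those past the threshold or the 2 with the smallest p. Other chains shown singly (Col18a1, Col4a5, Col6a1 and Col6a2), and the correlations with marker sums, were chosen after values had been seen. The members and gene lists were chosen with earlier results of these data known.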

Additional observations from a re-analysis of the deposited data

Results flagged for a closer look

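In Col6a2, susceptible 6 stood apart from the other susceptible mice at a log2 signal of -0.56, against values between -2.23 and -2.03 in the other 5. Its gap to the nearest mouse was 0.88 of the range of the 6, above the 95% limit of Dixon's test for 6 samples. It was the only such case in 44 groups looked at, the susceptible and naive mice of the 22 tested genes, and chance alone gives about 1 in 20.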

How the results depend on the processing

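The number of collagen chain genes past the adjusted threshold is given with the share of all genes past it under the same setting. In susceptible against naive mice it was 1 with quantile normalisation (4.01%), 1 with normexp background correction (5.47%) and 1 with slide as a block (15.3%), Col25a1 each time. It was 1 of 25 with a filter on 3 arrays (Col6a3, 1.82%) and 2 with scan day as a block (Col25a1 and Col11a2, 17.3%). In resilient against naive mice it was 1 with normexp (Col25a1, 1.11%) and 2 with scan day as a block (Col25a1 and Col26a1, 10.2%). With the replicate block it was 5 in susceptible (Col16a1, Col25a1, Col26a1, Col3a1 and Col11a2, 11.8%) and 3 in resilient against naive mice (Col25a1, Col26a1 and Col3a1, 5.03%), but equal numbers do not mark paired mice in the labels, and the correlation of same-numbered mice ran between -0.37 and 0.71. Leaving out 1 mouse at a time, with or without slide as a block, gave 0 to 3 in susceptible and 0 to 2 in resilient against naive mice. Both highest counts came with slide as a block and without susceptible 6 (Col25a1, Col26a1 and Col11a2, 19.4%, and Col25a1 and Col26a1, 8.21%). The median difference moved within slide 2, to 0.12 in resilient against naive and -0.41 in susceptible against resilient mice.

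Single genes changed sign as follows. In resilient against naive mice, Col6a2 was 0.17 with slide and 0.11 with scan day as a block and 0.056 within slide 1. Within slide 2 Col1a1 was 0.57, Col1a2 0.74, Col18a1 0.31, Col9a2 0.23, Col16a1 0.41, Col6a1 0.056 and Col6a2 0.38. In susceptible against naive mice within slide 3, Col11a2 was 0.049, Col4a1 -0.039 and Col4a2 -0.066. Leaving out 1 mouse gave a range of -0.21 to 0.073 for Col11a2, -0.85 to 0.13 for Col1a2, -0.60 to 0.16 for Col16a1, -0.39 to 0.32 for Col6a2 and -0.60 to 0.19 for Col6a1 in resilient, and of -0.45 to 0.097 for Col6a2 in susceptible against naive mice. The cause was not tested. Over all 1525 recomputed differences of single genes, 1373 kept direction and side of the threshold, 32 passed it newly, 74 no longer passed (P4ha2, Slco1a4, S100b, Adora2a and Adamts3) and 46 changed sign. Dim probes limit what can be said of the 21 untested genes.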

Other observations

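The remaining cell type lists gave these values in susceptible against naive mice. In that comparison 2.6% of all genes passed the adjusted threshold in limma and 24% had an unadjusted p under 0.05. Such an unadjusted p was found for 4 of 8 astrocyte and 2 of 6 striatal neuron markers. Astrocyte markers had a median difference of -0.31 over 8 genes, of which 1, S100b, fell (-0.64 ± 0.16, SE, adjusted p = 0.0491 in limma, past the threshold in 24 of 43 alternatives and lost without any 1 of naive 2 to 4, susceptible 1 to 5 or resilient 1 to 3). The 4 tested erythroid genes had a median of 1.63, with 0 past the adjusted threshold in limma and 4 at an unadjusted p under 0.05, where 24% of all genes were. Their summed signal ran between 6.02 and 62.4 in susceptible, between 7.51 and 45.0 in resilient and between 3.71 and 14.8 in naive mice. Median differences were -0.43 over 6 oligodendrocyte markers, -0.13 over 6 microglia markers and -0.01 over 4 oligodendrocyte precursor markers. They were 0.20 over 5 neuron markers, -0.06 over 6 cortical excitatory neuron markers and 0.22 over 6 striatal neuron markers. Fewer genes were tested than listed for choroid plexus markers (-0.07 over 4 of 7) and perivascular macrophage markers (-0.73 over 2 of 4). Of the 6 striatal neuron markers 1, the adenosine receptor gene Adora2a, fell (-0.45 ± 0.077, SE, adjusted p = 0.0175 in limma), and it passed in 40 of 43 alternatives, all but the fits within single slides. The choroid plexus gene Ttr differed by -1.72 (adjusted p = 0.0571 in limma). With slide as a block limma called 15.3% of all genes. Of these lists it called Ttr, S100b, Aldh1l1, Aif1, Mog and Neurod6 below 0 and Hbb-bt above 0, and 1 striatal gene rose and 1 fell.

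Neighbouring collagen genes can be set side by side. In the reference annotation 8 pairs of collagen chain genes follow each other directly among protein-coding genes, and both members were tested in 3: Col4a1 with Col4a2, Col6a1 with Col6a2, and Col4a5 with Col4a6. Col4a5 and Col4a6 differed by -0.63 and -0.24 in susceptible and by -0.61 and -0.11 in resilient against naive mice, while a dimmer Col4a6 probe gave -0.9998 and -0.85. Col5a2, which follows Col3a1, was above background on no array.

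Col16a1 had a dimmer probe, above background on 12 arrays, with differences of -0.59 in susceptible and -0.55 in resilient against naive mice, beside -0.46 and -0.33 for its brightest probe. Col23a1 had 3 probes, with differences of -0.05, -0.11 and 0.32 in susceptible against naive mice. In resilient against naive mice they gave -0.10, -0.46 and 0.25.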
